A study of Mus musculus with 8 samples.

Results

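The genes described here are 10 endothelial and splenic sinus genes of the mouse: Cdh5, Kdr, Tek, Tie1, Stab2, Madcam1, Emcn, Plvap, Esam and Sox17. The rule that lists them uses no measured value, but the 10 genes were chosen with earlier results of these data known. Counts of the 10 genes set beside shares of all genes are therefore descriptions. The genes were found in the count table by matching its Ensembl identifiers to mouse symbols. Each symbol matched 1 identifier, so the list makes up 10 of the 52636 genes counted, and all 10 were among the 17327 genes that passed the filter on low counts. Messenger RNA of whole spleen was sequenced from C57BL/6 mice aged 6 weeks, either wild type or carrying the R527C mutation of Lmna, the gene of the nuclear lamins A and C. Spleens were taken without irradiation, at day 0, or on day 7 after 4 Gy of radiation, which gives 4 groups of 2 libraries: unirradiated wild type, unirradiated mutant, irradiated wild type and irradiated mutant. The labels do not say whether the mutants carry 1 or both mutant alleles, nor whether each library comes from 1 animal, and the p-values therefore rest on the spread among these libraries alone, which may be technical. There was no unirradiated group at day 7, and therefore radiation cannot be told apart from the 7 days that separate the groups. The irradiated and unirradiated libraries also differed in sex-linked transcripts, as given below, so radiation cannot be told apart from sex either.

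Endothelial cells line all blood vessels and hold together through junctions of cadherins and immunoglobulin-family adhesion molecules. Their survival and growth depend on vascular endothelial growth factor (VEGF), sensed by receptors such as that encoded by Kdr, and on the angiopoietins, sensed by the receptor encoded by Tek. The spleen has several kinds of vessel: arterioles, the sinusoids of the red pulp, whose lining takes up waste molecules from blood, and the marginal sinus around the white pulp, whose lining cells carry the adhesion molecule MAdCAM-1.

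The libraries held between 12100784 and 19455470 counts, so that 3 counts, the upper limit that a count of 0 allows, corresponded to 0.131 to 0.350 CPM (counts of a gene relative to the scaled size of its library). Levels below are CPM on library sizes scaled by edgeR's trimmed mean of M values (TMM), and such limits cover counting error only. All 8 markers used to check for endothelium (Cdh5, Pecam1, Kdr, Tie1, Cldn5, Erg, Emcn and Egfl7) were detected in every library, the lowest being Emcn with 17 counts. The spleen markers Cd79a, Cd3e, Spic, Nkx2-3, Tlx1 and Madcam1 were also detected in every library. The replicates of the irradiated mutant group stood apart from each other: their log2 CPM values correlated at 0.88 across genes, against 0.94 to 0.99 within the other groups. Irradiated mutant replicate 1 had 164960 CPM over 9 erythroid markers and 69.5 CPM over 7 B cell markers, against 13579 and 949 CPM in replicate 2. In addition, Xist had at most 6 counts in any unirradiated library and at least 11836 in each irradiated one, while the 4 Y-linked genes measured (Eif2s3y, Uty, Ddx3y and Kdm5d) had 0 counts in all 4 irradiated libraries and at least 284 each in all 4 unirradiated ones. This is the pattern of male spleen in the unirradiated libraries and of female spleen in the irradiated ones. Irradiation, day and sex therefore differed together across the libraries and cannot be told apart in any comparison of irradiated with unirradiated spleen.

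To show the start-site sequence of genes at both ends of the range of behaviour described below, the 250 bases before the RefSeq start site (GRCm38.p6, gene strand, 5′ to 3′) are given for Kdr, whose profile over the libraries lay closest to the mean of the 10 genes, and for Madcam1 and Emcn, which lay far from it. Capitals mark matches to the motifs searched. Kdr lies at chr5:75978456-75978705 on the minus strand, Madcam1 at chr10:79664309-79664558 on the plus strand and Emcn at chr3:137340828-137341077 on the plus strand.
Kdr: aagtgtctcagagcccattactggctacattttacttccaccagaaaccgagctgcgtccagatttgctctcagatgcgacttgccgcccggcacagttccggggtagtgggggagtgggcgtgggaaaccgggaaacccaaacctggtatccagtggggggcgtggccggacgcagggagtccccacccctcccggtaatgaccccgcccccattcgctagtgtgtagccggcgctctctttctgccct
Madcam1: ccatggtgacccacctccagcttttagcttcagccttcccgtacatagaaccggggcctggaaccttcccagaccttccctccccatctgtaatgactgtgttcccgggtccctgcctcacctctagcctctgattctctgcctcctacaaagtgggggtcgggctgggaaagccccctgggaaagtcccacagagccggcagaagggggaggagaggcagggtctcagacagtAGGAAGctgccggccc
Emcn: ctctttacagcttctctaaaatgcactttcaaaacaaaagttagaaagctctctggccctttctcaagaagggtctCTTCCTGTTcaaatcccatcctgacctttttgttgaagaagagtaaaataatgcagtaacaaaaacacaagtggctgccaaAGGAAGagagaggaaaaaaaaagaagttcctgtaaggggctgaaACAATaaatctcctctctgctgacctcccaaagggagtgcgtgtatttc

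RefSeq entries were matched for 6 of the 10 genes (Emcn, Tek, Tie1, Kdr, Madcam1 and Stab2). Each window was searched on both strands for the core AGGAAG, bound by ETS factors, for AACAGGAA, in which a forkhead and an ETS core overlap, for the SOX core ACAAT and for the GATA core AGATAA. The ETS core was present in 4 of the 6 windows (Emcn, Tie1, Madcam1 and Stab2), against 29.5% of 32851 promoter windows of the same length. In Madcam1 it lay 16 to 11 bases before the start site, and Emcn held it at 174 to 169 and at 93 to 88 bases before the start. The Emcn window also held the forkhead and ETS letters, overlapping the more distant of its ETS cores; 2.25% of all windows hold these letters. The SOX core was found in Emcn and Tek, 2 of the 6, against 27.7% of all windows. The GATA letters were in none of the 6 windows, against 9.99% of all windows, and the Kdr window matched none of the motifs. A match is a description of the letters and not a sign of binding.

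Levels of different genes were compared per kilobase of exon (RPKM, CPM divided by the summed exon length in kilobases). In unirradiated wild-type spleen Plvap, whose protein forms the diaphragms of endothelial fenestrae and vesicles, had the highest level at 56.3 RPKM. Madcam1 followed at 18.2 RPKM and Esam at 7.83 RPKM. Cdh5 at 6.31, Stab2 at 6.10 and Tie1 at 5.61 RPKM came next, and neighbours in this run overlapped in their libraries. Kdr at 4.02, Sox17 at 1.91, Tek at 1.31 and Emcn at 0.654 RPKM ended the order. Plvap was highest and Emcn lowest in all 4 groups. In unirradiated mutants Stab2 at 7.23 RPKM came directly after Madcam1, and Tek at 1.58 RPKM lay above Sox17 at 0.887 RPKM, the reverse of wild type. In irradiated spleen the replicates were wider apart, and most neighbours between Madcam1 and Tek overlapped.

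**Figure D1:**
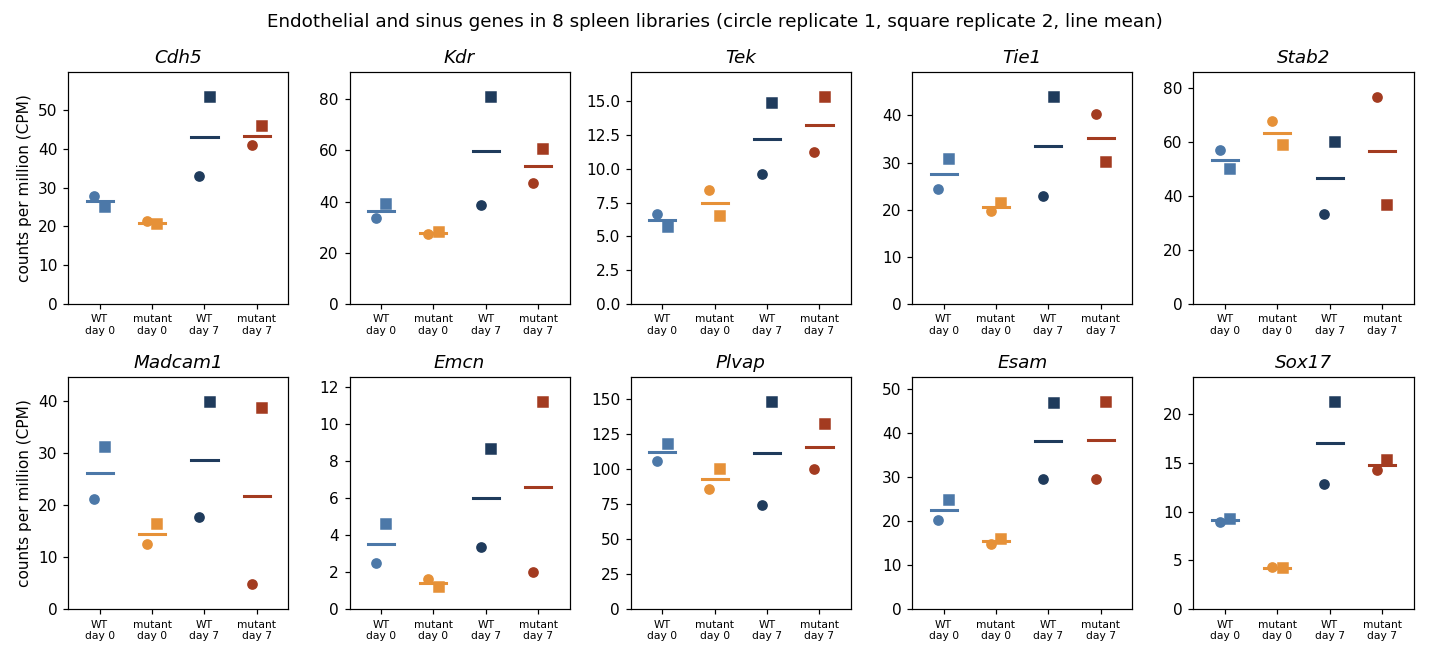
Level of each of the 10 genes in CPM on TMM-scaled library sizes (vertical axes, starting at 0), with 1 point per library and a bar at the mean of each group of 2. The 4 irradiated libraries lie above the 4 unirradiated ones for Cdh5, Tek, Esam and Sox17, and Madcam1 in irradiated mutant replicate 1 is the lowest of all 8 at 4.91 CPM.

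Irradiated spleen was compared with unirradiated spleen within each genotype. None of the 10 genes passed the test in either genotype (edgeR's quasi-likelihood test, Benjamini-Hochberg adjusted p under 0.05 over all genes tested), where the background of all genes was 0.0577% called in wild type and 0.6% in mutants. In wild type 8 of the 10 log2 fold changes were above 0, against 54.2% of all genes, with a median of 0.71 against 0.09 over all genes tested. In mutants it was 9 of 10, against 56.3%, with a median of 0.90 against 0.15. Unadjusted p-values were under 0.05 for 3 of the 10 in wild type (Cdh5, Tek and Sox17), against 17.3% of all genes, and 5 in mutants (Cdh5, Kdr, Emcn, Esam and Sox17), against 22.1%. Both irradiated libraries lay above both unirradiated ones for 4 of the 10 genes in wild type, close to the background of 29.7%, and for 8 of 10 in mutants, against a background of 26.9%. The margin in mutants was small for Plvap, at 100.21 against 100.05 CPM. It was also small for Emcn, at 1.99 against 1.61 CPM from 17 and 37 counts. These are RNA amounts of whole spleen, in which a larger share of endothelial cells and more RNA per endothelial cell cannot be told apart.

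Sox17, a transcription factor of arterial endothelium (ENSMUSG00000025902.13, GRCm38 chromosome 1, 4490931 to 4497354, minus strand), had the largest log2 fold change with irradiation in mutants after Emcn, and the lowest p of the 10 genes. Its level was 8.92 and 9.30 CPM at day 0 and 12.9 and 21.3 CPM at day 7 in wild type, against 4.27 and 4.19 at day 0 and 14.2 and 15.3 CPM at day 7 in mutants. All 4 irradiated libraries were above all 4 unirradiated ones, and the unirradiated mutants were the lowest group. The log2 fold change with irradiation was 1.80 ± 0.36 (SE, 3.49-fold, 95% interval 1.97 to 6.17) in mutants and 0.91 ± 0.35 in wild type, with adjusted p = 0.0775 and 0.253 by edgeR's quasi-likelihood test. Leaving out irradiated mutant replicate 1 or 2, which also takes their difference out of the spread shared by all groups, gave 1.80 and 1.60 in mutants, with adjusted p = 0.0282 and 0.0182 by edgeR, where 6.89% and 24.6% of all genes were called. Exons of Sox17 share 804 bases with Gm37587 on the opposite strand, which had 3 counts over all 8 libraries.

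The junction genes Cdh5 and Esam had similar profiles over the libraries. Cdh5 encodes VE-cadherin, the cadherin of endothelial adherens junctions (ENSMUSG00000031871.9, chromosome 8, 104101625 to 104144511, plus strand). It had 28.0 and 25.05 CPM at day 0 and 32.9 and 53.5 CPM at day 7 in wild type, against 21.4 and 20.6 at day 0 and 41.0 and 45.9 CPM at day 7 in mutants. Esam encodes an adhesion molecule of endothelial tight junctions that is also carried by platelets and stem cells (ENSMUSG00000001946.14, chromosome 9, 37528078 to 37538319, plus strand). It had 20.2 and 24.7 CPM at day 0 and 29.5 and 46.7 CPM at day 7 in wild type, against 14.7 and 16.0 at day 0 and 29.5 and 47.1 CPM at day 7 in mutants. For both genes the irradiated libraries lay above all unirradiated ones. The log2 fold change of Cdh5 was 0.70 ± 0.30 in wild type and 1.05 ± 0.31 in mutants (adjusted p = 0.289 and 0.121 by edgeR), and that of Esam was 0.76 ± 0.35 and 1.32 ± 0.35 (adjusted p = 0.306 and 0.113). The mutant value of Esam was 1.56 with mutant replicate 1 of day 7 left out and 0.80 without replicate 2. Each of these fits leaves 1 library in the irradiated mutant group. The summed level of 11 megakaryocyte and platelet markers, all detected in every group, was 443 to 724 CPM in unirradiated and 69.4 to 126 CPM in irradiated libraries.

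The receptors of VEGF and of the angiopoietins had most of their higher values in the irradiated libraries too. Kdr, the main signalling receptor of VEGF (ENSMUSG00000062960.10, chromosome 5, 75932827 to 75978458, minus strand), had 33.5 and 39.0 CPM at day 0 and 38.5 and 81.0 CPM at day 7 in wild type, against 27.3 and 28.1 at day 0 and 47.1 and 60.3 CPM at day 7 in mutants. Irradiated mutants lay above unirradiated mutants, while in wild type irradiated replicate 1 fell between the unirradiated libraries. The Kdr change in wild type ranged from 0.07 without irradiated replicate 2 to 1.14 without irradiated replicate 1. Tek, the angiopoietin receptor Tie2 (ENSMUSG00000006386.15, chromosome 4, 94739289 to 94874976, plus strand), had 6.68 and 5.69 CPM at day 0 and 9.64 and 14.8 CPM at day 7 in wild type, against 8.42 and 6.47 at day 0 and 11.2 and 15.3 CPM at day 7 in mutants. Every irradiated library was above every unirradiated one. Tie1, the partner receptor of Tek (ENSMUSG00000033191.14, chromosome 4, 118471191 to 118490061, minus strand), had 24.4 and 30.8 CPM at day 0 and 23.0 and 44.0 CPM at day 7 in wild type, against 19.8 and 21.4 at day 0 and 40.3 and 30.1 CPM at day 7 in mutants. In wild type the Tie1 groups overlapped. The log2 fold changes in wild type and mutants were 0.72 ± 0.37 and 0.95 ± 0.37 for Kdr, 0.98 ± 0.38 and 0.84 ± 0.38 for Tek, and 0.28 ± 0.36 and 0.77 ± 0.37 for Tie1, with the lowest adjusted p of the 6 at 0.196 by edgeR.

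The other 4 genes, Plvap, Stab2, Madcam1 and Emcn, had irradiated values both above and below unirradiated ones in at least 1 genotype, as did Kdr and Tie1 in wild type. Plvap (ENSMUSG00000034845.6, chromosome 8, 71497765 to 71511752, minus strand) had 106 and 118 CPM at day 0 and 74.5 and 148 CPM at day 7 in wild type, against 85.5 and 100.1 at day 0 and 100.2 and 132 CPM at day 7 in mutants. Its wild-type groups overlapped, and its log2 fold change was -0.01 ± 0.38 in wild type and 0.32 ± 0.38 in mutants. Stab2 encodes stabilin-2, the hyaluronan scavenger receptor of sinusoidal endothelium (ENSMUSG00000035459.17, chromosome 10, 86841198 to 87008025, minus strand). It had 56.9 and 50.0 CPM at day 0 and 33.3 and 59.9 CPM at day 7 in wild type, against 67.9 and 58.7 at day 0 and 76.7 and 36.5 CPM at day 7 in mutants, so that irradiated values lay on both sides of the unirradiated ones in both genotypes. Its log2 fold change was -0.20 ± 0.42 in wild type and -0.16 ± 0.42 in mutants, with 95% intervals from 0.444- to 1.71-fold and from 0.455- to 1.75-fold. Stab2 exons share 141 bases with the antisense gene Gm16268, which had 46 counts in total.

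Madcam1, which encodes the adhesion molecule bound by the lymphocyte integrin of Itga4 and Itgb7 (ENSMUSG00000020310.9, chromosome 10, 79664559 to 79668537, plus strand), had 21.1 and 31.1 CPM at day 0 and 17.7 and 39.8 CPM at day 7 in wild type, against 12.4 and 16.4 at day 0 and 4.91 and 38.6 CPM at day 7 in mutants. The value of 4.91 CPM, from 42 counts, was in irradiated mutant replicate 1, the library poor in B cell markers. Emcn, which encodes the endothelial surface sialomucin endomucin (ENSMUSG00000054690.17, chromosome 3, 137341067 to 137432185, plus strand), had 2.46 and 4.62 CPM at day 0 and 3.33 and 8.65 CPM at day 7 in wild type, against 1.61 and 1.21 at day 0 and 1.99 and 11.2 CPM at day 7 in mutants. The replicates of each irradiated group were far apart for both genes. The log2 fold change in mutants was 0.61 ± 0.80 for Madcam1 and 2.24 ± 0.85 for Emcn (adjusted p = 0.675 and 0.187 by edgeR), and in wild type 0.14 ± 0.80 and 0.76 ± 0.82. The mutant value of Madcam1 was 1.37 without irradiated mutant replicate 1 and -1.70 without replicate 2. That of Emcn was 2.92 and 0.34, and each of these fits leaves 1 library in the irradiated mutant group.

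**Figure D2:**
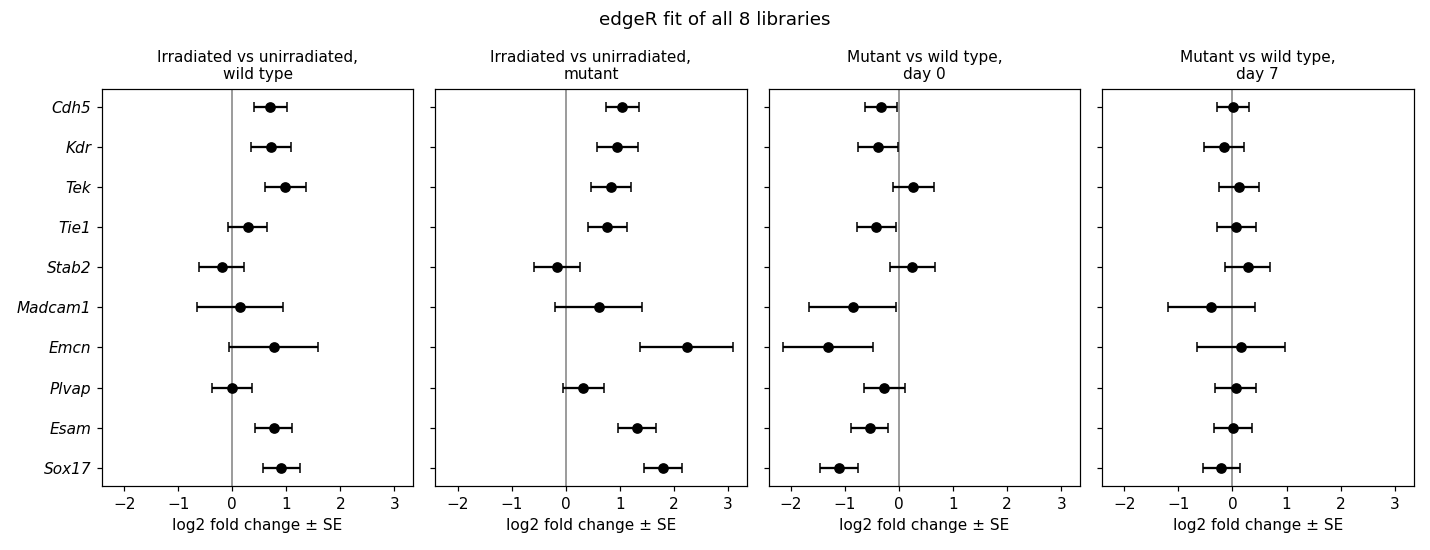
Log2 fold change of each gene in the 2 irradiation and 2 genotype comparisons (horizontal axes, positive where the first-named group is higher), with points for the fitted values and bars for 1 standard error. With irradiation in mutants Sox17 lies at 1.80 and Emcn at 2.24 with a wider bar, while at day 7 the values of mutant over wild type lie between -0.39 and 0.28.

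Averaging the irradiation contrast over both genotypes, a comparison added after the data were seen, used 4 libraries on each side. By edgeR's quasi-likelihood test 3 of the 10 genes rose, against a background of 12.2% of all genes called and 6.42% called higher. Sox17 rose 2.56-fold (log2 1.35 ± 0.25, adjusted p = 0.0211), Esam 2.06-fold (1.04 ± 0.25, adjusted p = 0.0373) and Cdh5 1.84-fold (0.88 ± 0.22, adjusted p = 0.0402). Tek (0.91 ± 0.27, adjusted p = 0.0601) and Kdr (0.84 ± 0.26, adjusted p = 0.0713) did not pass. All 4 irradiated libraries lay above all 4 unirradiated ones for Cdh5, Tek, Esam and Sox17, 4 of 10 against a background of 12.8%. The count of 3 depended on single libraries. It fell to 0 when any 1 of the 4 unirradiated libraries was left out, where 0.327% (wild type 1), 0.514% (wild type 2), 0.486% (mutant 1) and 0.502% (mutant 2) of all genes were called. Leaving out wild-type replicate 2 of day 7 left 1 gene, Sox17 (3.54% of all genes called), and leaving out replicate 1 gave 3, with Kdr in place of Esam (3.7%). With mutant replicate 2 of day 7 left out the 3 genes passed (38.8%), and with mutant replicate 1 left out there were 6, Kdr, Tek and Emcn added (22.2%).

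The share of each gene in the summed RPKM of the 10 genes does not depend on how libraries are scaled, although shares add to 100% and the share of 1 gene falls when another rises. The sum itself was 79.7 to 116 RPKM in unirradiated and 86.0 to 165 RPKM in irradiated libraries. Plvap made up 51.3% to 56.7% of it in the unirradiated libraries and 43.6% to 49.5% in the irradiated ones, without overlap. Esam made up 6.27% to 7.43% without and 9.86% to 11.95% with irradiation, and Cdh5 5.14% to 6.62% without and 7.48% to 9.58% with it. Kdr made up 3.50% to 3.80% without and 4.57% to 5.43% with irradiation, and Sox17 0.988% to 1.86% and 2.19% to 3.14%. The irradiated shares of these 4 genes lay above all unirradiated ones. For these separations and that of Plvap no test was run and no background over all genes was worked out. Plvap was the largest part of the sum, so its lower share raises the others and the separations are not independent. The shares of the other 5 genes overlapped. Madcam1 was 3.36% of the sum in irradiated mutant replicate 1 and 10.9% to 18.7% in the other 7 libraries.

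The genotypes were compared separately without and with irradiation. At day 0, 0 of the 10 genes passed (edgeR), as did 0 of all genes, a background of 0%; at an unadjusted p under 0.05 there were 388 genes, and DESeq2 called 60. Both mutant libraries lay below both wild-type libraries for 8 of the 10 genes, against a background of 25%, and above them for Stab2 alone, 1 of 10 against 20.8%. The log2 fold change of mutant over wild type was above 0 in 2 of 10, against 46.7% of all genes, and its median was -0.40, against -0.02 over all genes. The unirradiated mutant libraries also enter the irradiation comparison in mutants, so a low level there raises the change with irradiation.

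Sox17 was the 1 gene of the 10 with an unadjusted p under 0.05 between the unirradiated genotypes, where 2.24% of all genes had one. Its level in mutants was 0.465 times that in wild type (log2 fold change -1.10 ± 0.35, 95% interval 0.265- to 0.816-fold, unadjusted p = 0.0139, adjusted p = 1 by edgeR). It passed when only the 4 unirradiated libraries were fitted (log2 fold change -1.08, adjusted p = 0.0361 by edgeR), a fit with a background of 2.81% of genes called. Emcn (-1.31 ± 0.84) and Madcam1 (-0.86 ± 0.80) had comparable or wider differences with larger errors. Esam, Tie1, Kdr, Cdh5 and Plvap ranged from -0.55 to -0.27, while Tek at 0.27 ± 0.38 and Stab2 at 0.24 ± 0.42 lay above 0.

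At day 7 after irradiation 0 of the 10 genes passed and 0 had an unadjusted p under 0.05. Over all genes edgeR also called 0, a background of 0%, with 696 (4.02%) at an unadjusted p under 0.05, while DESeq2 called 73. None of the 10 genes separated mutant from wild type without overlap, where 10.4% of all genes were higher and 7.46% lower without overlap. The median log2 fold change was 0.04, and 7 of 10 were above 0, against 51.6% of all genes. The 95% interval of mutant over wild type was 0.620- to 1.63-fold for Cdh5, 0.577- to 1.76-fold for Esam and 0.498- to 1.501-fold for Sox17. It was 0.496- to 1.63-fold for Kdr, 0.617- to 2.39-fold for Stab2, 0.212- to 2.76-fold for Madcam1 and 0.305- to 4.08-fold for Emcn, so a 2-fold difference lies within the intervals of Sox17, Kdr, Stab2, Madcam1 and Emcn. Within each irradiated group replicate 2 was mostly the higher library: in 10 of 10 genes in wild type, against 50.6% of all genes, and in 8 of 10 in mutants, against 53.8%, with Tie1 and Stab2 the other way.

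The test of whether irradiation acted differently in mutants, the interaction of genotype and irradiation, called 0 of the 10 genes and 0 of all genes (edgeR, a background of 0%, 277, or 1.6%, at an unadjusted p under 0.05 and 4 called by DESeq2). The interaction was above 0 for 9 of 10 genes, against 54.2% of all genes, with a median of 0.41, against 0.05 over all genes. It was 0.89 ± 0.49 for Sox17, 0.56 ± 0.49 for Esam and 0.34 ± 0.43 for Cdh5, with unadjusted p = 0.105, 0.291 and 0.444 by edgeR. A difference in this change between the genotypes was therefore not detected for these genes. Day and sex differed together with irradiation in both genotypes, so the interaction cannot be assigned to irradiation alone.

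**Figure D3:**
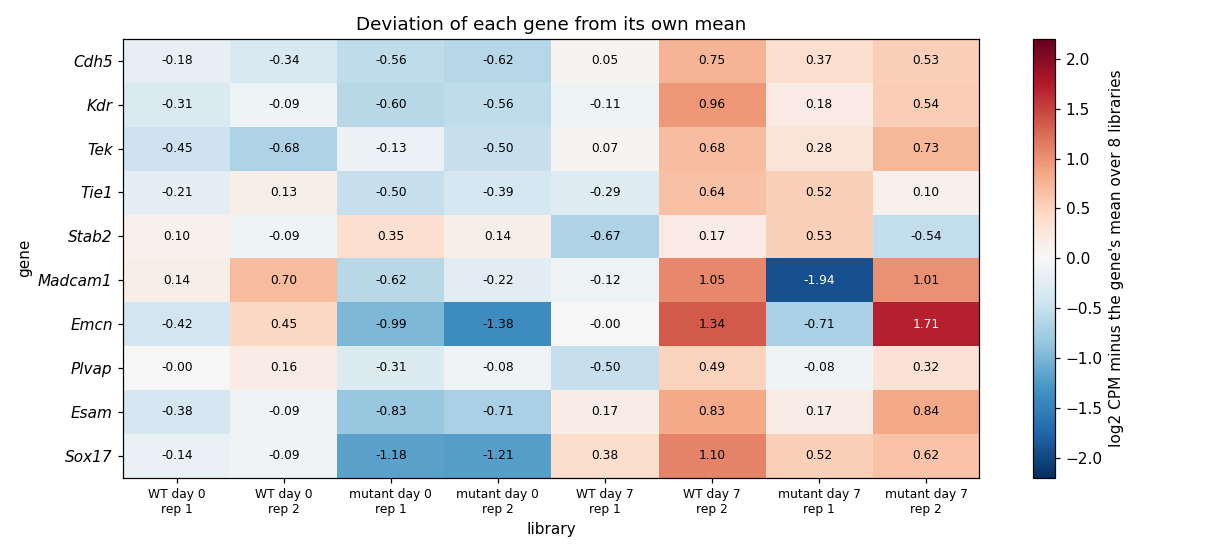
Log2 CPM of the 10 genes in the 8 libraries, each gene centred on its mean over the libraries (color scale, log2 units). Most genes are low in the unirradiated mutants and high in irradiated wild-type replicate 2 and irradiated mutant replicate 2, while Stab2 is above its mean in both unirradiated mutants and Madcam1 and Emcn are low in irradiated mutant replicate 1.

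Likeness between profiles was measured as the root mean square difference of log2 CPM, each gene centred on its mean over the 8 libraries. Cdh5 and Kdr were the closest pair at 0.15, followed by Kdr and Esam at 0.18 and Cdh5 and Esam at 0.20. The farthest pairs were Stab2 and Emcn at 1.28 and Stab2 and Madcam1 at 1.19. Against the mean profile of the 10 genes, Kdr lay at 0.11, and Emcn at 0.63, Stab2 at 0.68 and Madcam1 at 0.76 were farthest. Outside the list, among 10900 genes with a mean of at least 5 CPM, the genes closest to that mean profile were Rbfox2 (0.10), Pcolce (0.12), Ets2 (0.14), Igip (0.15) and Ptprk (0.15), of which Pcolce encodes an enhancer of procollagen processing and Ets2 an ETS transcription factor. The points share libraries and scaling, so these distances are descriptions.

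Other genes of the same pathways were read from lists without the 10 genes. Of 19 further pan-endothelial genes, 16 were above 0 with irradiation in wild type, against 54.2% of all genes, and 18 in mutants, against 56.3%. Their medians were 0.59 and 0.98, against 0.09 and 0.15 over all genes. In unirradiated mutants against wild type 3 of 19 were above 0, against 46.7%, with a median of -0.35, against -0.02. None of the 19 passed in any of the 5 comparisons by edgeR. With irradiation in mutants, 11 were higher and 1 lower at an unadjusted p under 0.05, against 22.1% of all genes in either direction. Scaling the libraries to the summed counts of these 19 genes, an alternative added after the data were seen, gives changes relative to that sum. Pecam1, at 92.8 to 162 CPM, weighs most in the sum, and whether the sum follows endothelium alone was not tested. With this scaling the irradiation change in mutants became 1.18 ± 0.36 for Sox17 (adjusted p = 0.0826 by edgeR), 0.68 ± 0.36 for Esam, 0.43 ± 0.35 for Cdh5 and 0.32 ± 0.37 for Kdr. The median of all genes moved from 0.15 to -0.47, and Plvap (-0.31) and Madcam1 (-0.09) changed sign. In the averaged comparison Sox17 alone of the 10 passed with this scaling, at 0.94 (adjusted p = 0.0327 by edgeR), with 16.3% of all genes called.

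Among the VEGF and angiopoietin ligands and receptors, 12 of 13 genes were tested and 0 passed in any comparison. With irradiation 9 were above 0 in wild type, against 54.2% of all genes, and 11 in mutants, against 56.3%. Vegfa, the principal ligand of Kdr, had 51.3 and 43.4 CPM at day 0 and 40.4 and 53.1 CPM at day 7 in wild type, against 52.6 and 49.6 at day 0 and 69.5 and 94.8 CPM at day 7 in mutants. The irradiated mutants were thus the highest libraries, at a log2 fold change of 0.69 ± 0.29 (adjusted p = 0.217 by edgeR). Flt1, a second VEGF receptor that acts largely as a decoy, had 11.3 to 12.8 CPM in the 4 unirradiated and 20.4 to 32.2 CPM in the 4 irradiated libraries, a change of 1.11 ± 0.31 in wild type and 1.18 ± 0.31 in mutants (adjusted p = 0.175 and 0.109 by edgeR). Ptprb, the phosphatase that restrains Tek, had 26.6 to 42.6 CPM in unirradiated and 29.0 to 60.2 CPM in irradiated libraries, with overlap. Angpt1, the activating ligand of Tek, had 6.32 to 6.73 CPM in unirradiated wild type, 11.8 in each unirradiated mutant library and 2.61 to 6.59 CPM after irradiation, a change of -0.67 ± 0.43 in wild type and -0.86 ± 0.42 in mutants. Angpt2, the context-dependent antagonist, was 4.87 to 5.54 CPM in unirradiated and 5.86 to 7.64 CPM in irradiated libraries. Vegfb was between 11.04 and 16.6 CPM throughout. Vegfc and Vegfd, ligands of the lymphatic receptor, changed by 1.29 ± 0.46 and 1.93 ± 0.53 in mutants, and Pgf, a ligand of Flt1, by 2.71 ± 0.85 from 7 and 9 counts to 6 and 72. Angpt4, with 0 to 7 counts per library, was not tested.

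Other lists of the endothelium held 0 genes that passed in any comparison: 9 sinusoid scavenger genes, 13 arterial and Notch genes, 12 genes of the MAdCAM-1 receptor, its regulators and marginal zone stroma, and 7 lymphatic genes. The arterial list, to which Sox17 belongs by function, had a median log2 fold change of 1.17 with irradiation in mutants. The medians of the sinusoid, MAdCAM-1 and lymphatic lists were also above 0 there. In unirradiated mutants against wild type the arterial median was -0.81, with 2 of 13 above 0, against 46.7% of all genes. The sinusoid median was 0.16 (6 of 9 above 0), the lymphatic 0.16 (4 of 7) and the MAdCAM-1 -0.19 (4 of 12). For genotype at day 7, 9 of 9 sinusoid, 6 of 7 lymphatic, 6 of 12 MAdCAM-1 and 4 of 13 arterial genes were above 0, against 51.6%. The sinusoid median was then 0.76. Of the MAdCAM-1 list, Nkx2-3, a homeobox factor required for Madcam1 in spleen, had 11.3 to 14.9 CPM in unirradiated and 26.1 to 40.3 CPM in irradiated libraries, with changes of 1.29 ± 0.34 in wild type and 1.47 ± 0.34 in mutants (adjusted p = 0.169 and 0.0948 by edgeR). Itgb7, a chain of the lymphocyte receptor, had 121 to 190 CPM in unirradiated libraries and 32.8 CPM in irradiated mutant replicate 1, where Madcam1 was also lowest, against 69.3 to 167 CPM in the other 3 irradiated libraries. Itga4, its partner chain, was highest in that library at 341 CPM.

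**Figure D4:**
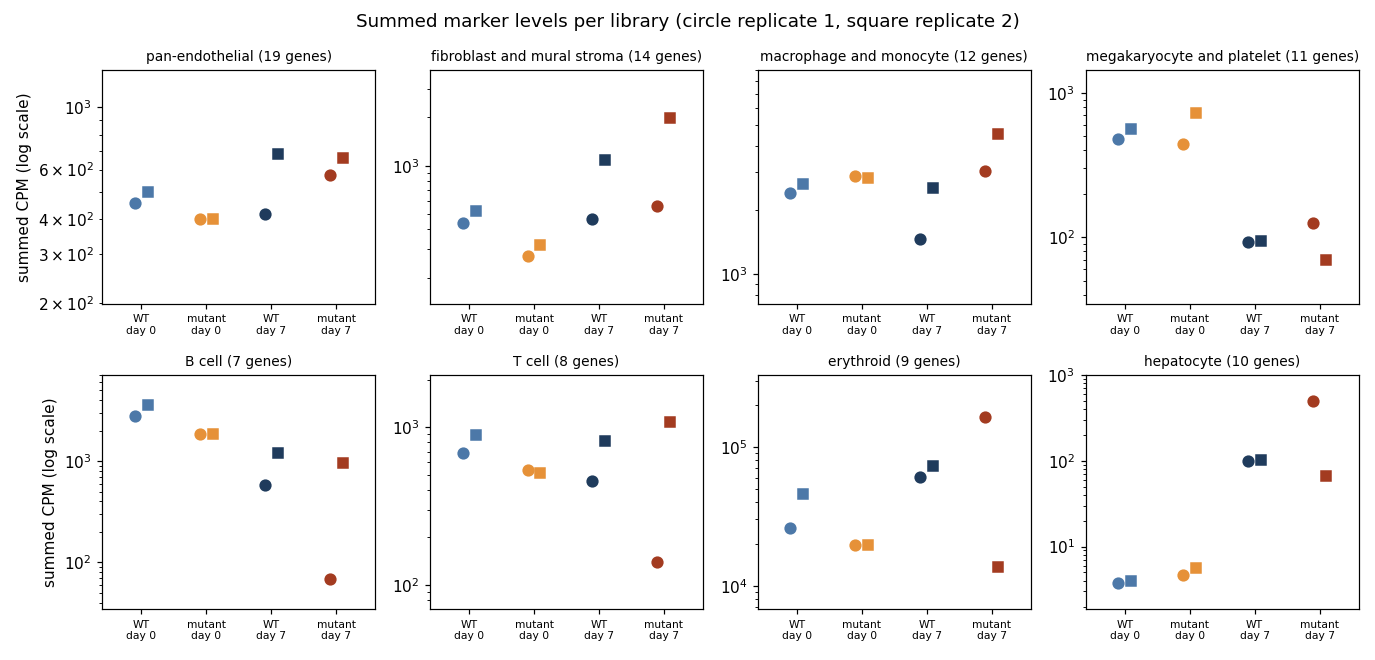
Summed CPM of 8 marker lists (vertical axes, log scale), with 1 point per library (circles for replicate 1, squares for replicate 2), for pan-endothelial genes other than the 10 and for other cell types. Fibroblast and mural markers reach 1987 CPM in irradiated mutant replicate 2, and B cell markers lie at 69.5 CPM in irradiated mutant replicate 1.

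Summed markers of other cell types also differed between these groups. The 14 fibroblast and mural markers, led by Col1a2, Dcn and Col3a1 and all detected in every group, summed to 437 and 520 CPM at day 0 and 462 and 1079 CPM at day 7 in wild type, against 274 and 321 at day 0 and 557 and 1987 CPM at day 7 in mutants. They were lowest in the unirradiated mutants and highest in replicate 2 of both irradiated groups. The same held for Cdh5, Kdr, Emcn, Esam and Sox17, but not for the rest of the 10 genes. The share of all genes with this order was not worked out, so the match is a description. None of the 14 passed in any comparison by edgeR. With irradiation in mutants 11 were higher at an unadjusted p under 0.05, against 22.1% of all genes in either direction. The 7 B cell markers summed to 1830 to 3538 CPM in unirradiated and 69.5 to 1189 CPM in irradiated libraries. The 10 granulocyte markers, led by S100a9 and S100a8 and all detected in every group, summed at day 0 to 1395 and 1632 CPM for wild type, against 5653 and 10932 for mutants, and to 92.0 to 218 CPM in the irradiated libraries. Their median log2 fold change of mutant over wild type at day 0 was 2.54, with 0 of 10 passing by edgeR. At an unadjusted p under 0.05 there were 9 higher, against 2.24% of all genes in either direction. With irradiation in mutants 8 of 10 were lower at an adjusted p under 0.05 by edgeR, with a median of -5.07. Of all genes 0.6% were called in that comparison, in either direction. The 10 hepatocyte markers summed to 3.74 to 5.58 CPM in unirradiated libraries, with Alb, Fgb, Fgg and Ahsg at 0 counts in all 4, and to 65.8 to 500.1 CPM in irradiated ones, led by Alb. The 9 adipocyte markers reached 1374 CPM and the 7 mesothelial markers 189 CPM in irradiated libraries, against at most 180 and 63.2 CPM in unirradiated ones. The 10 stem and progenitor markers summed to 116 to 134 CPM in unirradiated and 99.6 to 231 CPM in irradiated libraries. The part of these cell types in the results for the 10 genes was not tested.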

How the data were processed

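Whole-spleen messenger RNA libraries were made from Trizol extracts of frozen tissue, per the labels. The authors deposited whole-number read counts per gene for all 8 libraries; Trim Galore, Subread and featureCounts and the builds mm10 and hg38 are named in the submitters' processing notes, with versions, annotation release and strand setting not given in the sources used here. Of 52636 identifiers, 52403 were given symbols by matching without the version suffix, and 49035 matched with it. Coordinates and exon lengths came from GENCODE M21 (GRCm38). Genes were filtered with filterByExpr (at least 10 counts, 15 in total) and tested with edgeR 4.0.16 (R 4.3.3) by quasi-likelihood on all 8 libraries, 4 groups of 2, with TMM scaling and adjustment over the 17327 genes tested; the fit left 4 residual degrees of freedom. Standard errors were derived from each fold change and its F statistic, and intervals are 95%. Totals were 12100784 to 19455470 counts. Replicate libraries differed beyond sampling noise (19.1 to 331 chi-square units per degree of freedom), so none was counted as a duplicate.

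The 10 genes and all lists were chosen with earlier results of these data known. Named were all 10 genes, any listed endothelial gene that passed, 13 ligands, receptors and regulators whatever their values, the highest markers of other cell types and the 5 genes most alike; erythroid, adipocyte, mesothelial and stem cell sums were added with the values seen. The alternatives were DESeq2 1.42.0 size factors and its Wald test, no filter, a replicate block, fits of the compared groups alone, each library left out, and, added later, the averaged contrast and scaling to 19 endothelial genes. 1 further marker gene is not reported here. The test was checked on simulated counts.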

Additional observations from a re-analysis of the deposited data

How the results depend on the processing

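The fit shares 1 spread over all groups, which includes the difference between the irradiated mutant replicates; without replicate 1 or 2 of that group 1290 and 4428 of all genes were called with irradiation in mutants, in place of 104, and 4163 and 6989 averaged, in place of 2111. The replicate numbers are not said to pair the samples, and deviations of same-numbered libraries correlated at 0.03 to 0.47. With the replicate block 16 and 253 of all genes were called with irradiation in wild type and mutants, in place of 10 and 104. Of the 10 genes Kdr passed as well in the averaged comparison, just under the threshold (adjusted p = 0.0485 by edgeR), with no other call of the 10 changed. Without the filter all genes called were 1580, 2147, 143, 168 and 52 (irradiation in wild type, in mutants, genotype at day 0, at day 7, interaction) and 4635 averaged, and 2 of the 10 genes (Emcn and Sox17) passed with irradiation in mutants; averaged, Emcn passed in place of Cdh5. With only the compared groups fitted, 1107, 0 and 469 genes were called for irradiation in wild type, in mutants and genotype at day 0, and 1 of the 10 genes (Sox17) in the last. The DESeq2 Wald test called 1161, 1962, 60, 73 and 4, and 4690 averaged. Of the 10 genes it called 2 with irradiation in mutants (Esam and Sox17) and 5 averaged. No share of all genes was worked out for the DESeq2, unfiltered and replicate-block fits, so their counts of the 10 genes are not set against a background. Endothelial scaling left 1 averaged. Leaving out single libraries gave 0 to 2551, 3 to 4428, 0 to 15, 0 to 482 and 0 to 0 genes, and 60 to 6989 averaged; of the 10 genes, 0 to 3 passed with irradiation in mutants, 0 to 6 averaged and 0 to 0 in the other 4 comparisons. The causes were not tested.

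Small log2 fold changes changed sign. For genotype at day 7, without the filter and with the compared groups alone, Cdh5 was -0.0198 and -0.0176 and Esam -0.005 and -0.0088; the Stab2 interaction was -0.051 without the filter and -0.016 with the block. Endothelial scaling gave, with irradiation, Madcam1 -0.11 in wild type, -0.0899 in mutants and -0.0998 averaged, and Plvap -0.31 in mutants and -0.28 averaged; for genotype at day 7, Cdh5 -0.15, Tek -0.0607, Tie1 -0.0442, Plvap -0.0739 and Esam -0.17; for the interaction, Cdh5 -0.0667, Kdr -0.15, Stab2 -0.32 and Plvap -0.0611.

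Ranges over single libraries left out were, with irradiation in wild type, Kdr 0.07 to 1.14, Tie1 -0.28 to 0.66, Stab2 -0.70 to 0.15, Madcam1 -0.58 to 0.59, Emcn -0.10 to 1.28 and Plvap -0.60 to 0.39. In mutants they were Stab2 -0.85 to 0.13, Madcam1 -1.70 to 1.37 and Plvap -0.0376 to 0.46, and averaged, Madcam1 -0.81 to 0.72 and Plvap -0.15 to 0.34. For genotype at day 7 they were Cdh5 -0.30 to 0.40, Kdr -0.60 to 0.48, Tek -0.19 to 0.46, Tie1 -0.33 to 0.61, Stab2 -0.31 to 0.76, Madcam1 -2.61 to 0.47, Emcn -1.65 to 0.999, Plvap -0.35 to 0.64, Esam -0.43 to 0.38 and Sox17 -0.53 to 0.19. For the interaction they were Kdr -0.21 to 0.86, Tek -0.47 to 0.20, Stab2 -0.58 to 0.52, Madcam1 -1.78 to 1.30, Emcn -0.37 to 2.31 and Plvap -0.0827 to 0.91. In all, 65 of the alternative log2 fold changes of the 10 genes changed sign, 18 fell below the threshold and 17 passed it, while 720 kept both; DESeq2 size factors changed no call of the 10 genes.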
